A study of Ictalurus furcatus with 6 samples.

Results

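The 61 features described here are the genes of blue catfish (Ictalurus furcatus) whose names belong to mitochondrial protein import, cristae organisation, mitochondrial fusion and fission, and the quality control proteases of mitochondria. They were taken by a rule on names among the 27416 features of the expression table, and the rule was set with earlier results of these data known. The rule takes names beginning with tomm, timm, samm50, mtx1 to mtx3, chchd, micos, immt, phb, letm, opa1, opa3, mfn1, mfn2, dnm1l, fis1, mff, afg3l, yme1l, lonp1, clpp or clpx. The 61 features carry 58 different names, with PHB2 used for 3 features and YME1L1 for 2 when case is ignored. All 61 passed the filter on low values, and none was at 0 in any sample. In cryopreserved C2 and C3 no feature at all was at 0, so there this says nothing about the 61. Over all 27416 features, 537 were at 0 in fresh-frozen F2, 99 in fresh-frozen F3 and 2664 in cryopreserved C5.

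RNA-seq was made of testicular sperm from mature males of a strain given as D&B, with poly(A) selection and a directional kit. Cryopreserved sperm (C2, C3 and C5) was diluted in a balanced salt solution, mixed with methanol as cryoprotectant and cooled in straws at a controlled rate. Fresh-frozen sperm (F2 and F3) was flash-frozen in liquid nitrogen, so both groups had been frozen and thawed before RNA was extracted. The study's methods describe the flash-frozen samples as taken first. The cryopreserved aliquots came from sperm extracted out of the testis tissue that remained. This difference in preparation cannot be told apart from cryopreservation. The digit is the male, so males 2 and 3 gave a sample to each group and male 5 gave only C5, with F5 not analysed here. The mean of the 2 technical replicates of C2 counts as 1 sample.

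Most mitochondrial proteins are made in the cytosol. They enter through the TOM complex of the outer membrane and are then passed to the SAM complex, to the small TIM chaperones and the CHCHD4 relay of the intermembrane space, or to the TIM22 and TIM23 translocases of the inner membrane. The inner membrane is folded into cristae, whose junctions are built by the MICOS complex, while mitofusins, OPA1 and the DRP1 machinery join and divide the organelle. In spermatids of fishes and mammals the mitochondria gather at the base of the flagellum and form the midpiece.

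The values were treated as CPM, reads scaled to the total of the library without division by gene length. Levels are therefore compared between samples and not between genes. Differences are log2 fold changes of CPM + 1, cryopreserved minus fresh-frozen, with their standard error (SE). The FDR is the p-value of limma after Benjamini-Hochberg adjustment over the 27255 features tested, and a differentially expressed gene (DEG) had an absolute log2 fold change above 2 with an FDR below 0.05. Read depth is not listed with the values, but the study's supplement reports fewer filtered reads for each of C2, C3 and C5 than for F2 or F3. Those are reads before alignment and not reads counted in genes. The part of depth in the results was not tested. The spacing of low values gave a step of 0.362 CPM per read in F2, where 100% of them lay near a whole multiple. In the other columns 34.6% (C5) to 62.9% (a technical replicate of C2) lay near a multiple of the best step, against 20% by chance. These steps were only partial, so no counting error is given. Low values in those columns cannot be turned into a number of reads. Examples are tomm40 at 0.21 CPM and a PHB2 feature at 0.0583 CPM, both in C5 and under its best step of 0.3455 CPM.

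TIMM17B, a subunit of the TIM23 channel, was the one DEG among the 61 features. It rose to a mean of 163 ± 90.2 CPM in cryopreserved sperm (SD, n = 3), against 11.9 ± 2.38 CPM in fresh-frozen sperm (SD, n = 2). No feature was called downregulated. Over all features tested, 1.54% were called upregulated and 0.0% downregulated by the same rule. The study's own calls, made with edgeR at these thresholds, differed and included downregulated genes. At an unadjusted limma p under 0.05, 10 of the 61 features were higher and 1, YME1L1, was lower in cryopreserved sperm, where 6.89% and 11.3% of all features tested were. TMM rescaling called 3 features (2.02% of all features), quantile normalization 8 (5.21%) and the fit with the male as a block 5 (4.17%), TIMM17B among them each time, while median centring of the libraries called 0 (0.0%). None of those 4 fits called any of the 61 features downregulated, a call made for 0.367% of all features after quantile normalization and 0.44% with the block. The calls depended on single samples. Without C3, 7 features were called upregulated and 4 downregulated (6.77% and 25.6% of all features). Without C5 these were 4 and 0 (3.10% and 0.0915%). Without C2 no feature was called in either direction, neither among the 61 nor over all features. Leaving out F2 or F3 leaves 1 fresh-frozen sample, so no count is given there.

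The samples sorted the 61 features in both directions. All 3 cryopreserved samples lay above both fresh-frozen samples for 16 features, and for 13.6% of all features tested. They lay below for 13 features, and for 41.7% of all features tested. The groups overlapped for the other 32. The 61 features had a median log2 fold change of 0.05, against -1.02 for all features tested, and 31 of the 61 were positive, against 25.0% of all features. In 37 features the absolute log2 fold change was at most 1, 7 were above 2 and 3 were below -2. Over the 27255 features tested these counts were 10086, 1652 and 5331. Taken per sample against the fresh-frozen mean, C2 had a median difference of 0.00 over the 61 features, C3 of 0.14 and C5 of -0.48, and that of all features tested was -0.74, -0.21 and -1.93. C5 had the lowest of the 3 medians in both sets.

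**Figure D1:**
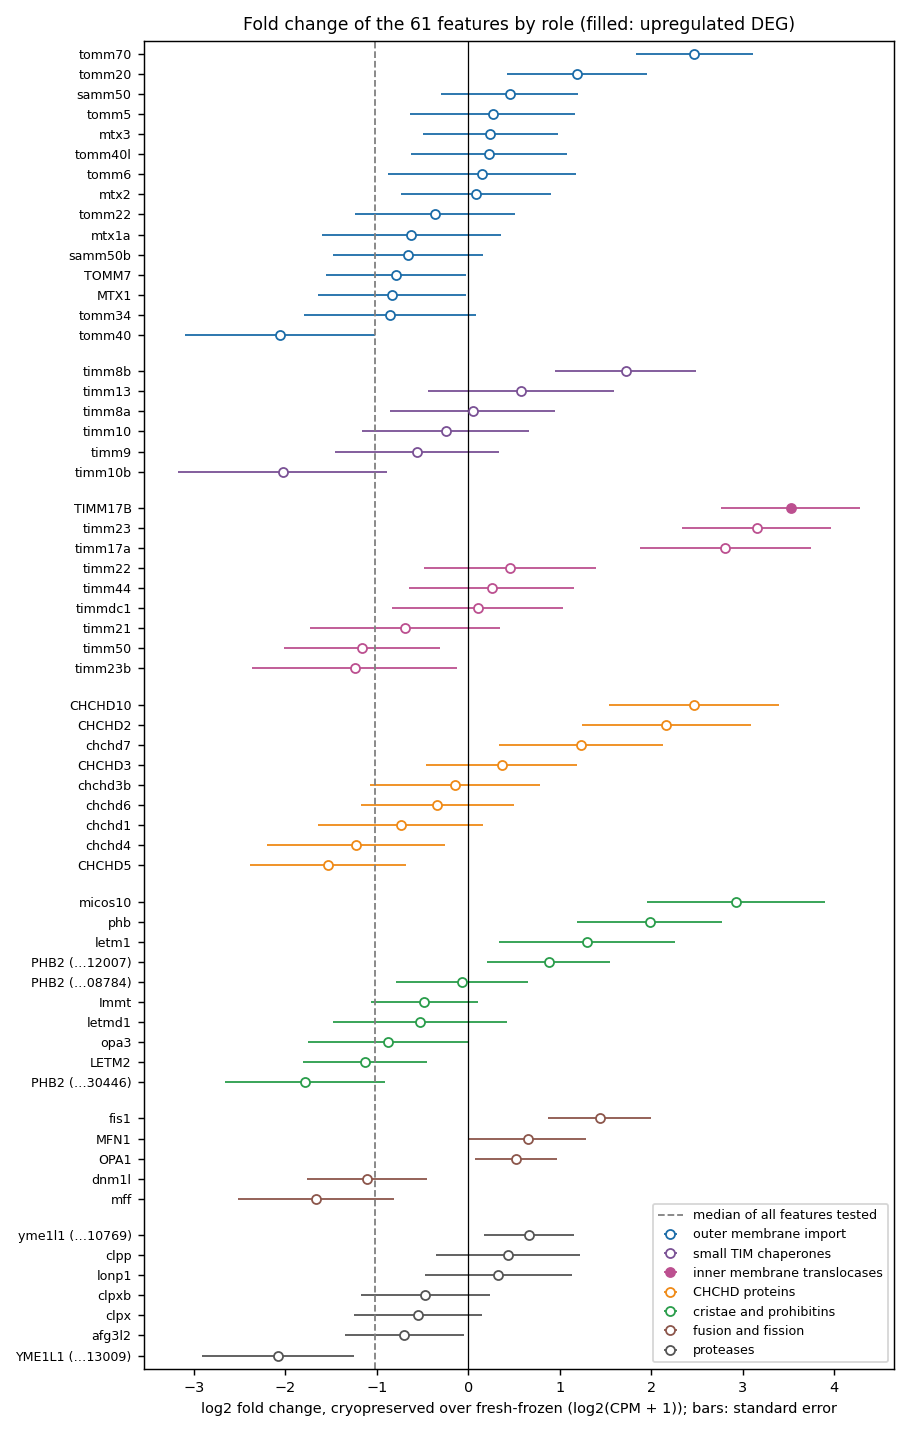
Log2 fold change (cryopreserved minus fresh-frozen, CPM + 1) of the 61 features by role, with bars for 1 SE, and the median of all features tested as a line. TIMM17B at 3.52 is the one DEG, and YME1L1 at -2.08 is the lowest.

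Over whole libraries the median level was 9.6 and 9.55 CPM in the technical replicates of C2, 15 CPM in C3 and 2.03 CPM in C5, against 15.7 CPM in F2 and 15.6 CPM in F3. The sign of many small differences moved with the scaling. TMM rescaling put the median over all features at -0.16 and that over the 61 features at 1.06. With median centring these were 0.03 and 1.10, and quantile normalization gave -0.22 and 0.72. The number of positive features among the 61 was 52, 50 and 43 under these 3 scalings, against 12314, 13884 and 11791 of the 27255 features tested. By role the median lay between -0.47 (proteases) and 0.52 (fusion and fission) as deposited and was positive in all 7 roles after TMM rescaling, between 0.65 and 1.72, but that of fusion and fission was -0.19 after quantile normalization. Together the 61 features held 2906 CPM in C2, 2873 CPM in C3 and 3529 CPM in C5, against 2549 CPM in F2 and 2514 CPM in F3.

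Markers of germ cell stages and of other cell types differed between the samples as well. The 26 spermatid and sperm marker features (tektins, dyneins, radial spoke and flagellar genes) were summed in each sample. The sum was 10881, 5924 and 19886 CPM in C2, C3 and C5, against 1476 and 1453 CPM in F2 and F3. tekt1 alone held 2526, 1280 and 5292 CPM in C2, C3 and C5, against 98 and 104 CPM in F2 and F3. Of the 26, 11 were upregulated DEGs (1.54% of all features). In every cryopreserved sample 21 were above and 3, dnah1, dnah2 and a HYDIN feature, below (13.6% and 41.7% of all features). The list was chosen with earlier results of these data known. It holds saxo2 and cfap206, which the study reported as upregulated, so these counts are descriptions and no test. The 16 meiotic features summed to 511, 871 and 161 CPM in the cryopreserved samples, against 1070.2 and 978 CPM in the fresh-frozen samples. The 15 early germ cell features summed to 569, 876 and 498 CPM in cryopreserved sperm, against 927 and 928 CPM in fresh-frozen sperm, and the 11 Sertoli features to 150.0, 236 and 35.1 CPM in cryopreserved sperm, against 284 and 326 CPM in fresh-frozen sperm, with inha at 0 in C5. The sperm list was highest in C5, and the other 3 lists were lowest there. The median log2 fold changes of the meiotic, early germ cell and Sertoli lists were -0.89, -1.15 and -0.79, against -1.02 for all features tested. After TMM rescaling they were 0.25, -0.18 and 0.23, against -0.16. Below in every cryopreserved sample were 7 of 16, 7 of 15 and 5 of 11 features (41.7% of all features). The 6 erythroid features summed to 3752, 720.4 and 249.8 CPM in C2, C3 and C5, against 220.5 and 192 CPM in F2 and F3. HBB alone held 2532, 390 and 91.5 CPM in C2, C3 and C5, against 16.8 and 7.41 CPM in F2 and F3. Only hbaa1 was not highest in C2, with 8.56 CPM there and 18.96 CPM in F2. Leukocyte features (12) summed to 571, 615 and 411 CPM in cryopreserved sperm, against 673 and 597 CPM in fresh-frozen sperm, with CD8A and spi1 at 0 in C5. Of the 12, 7 were below in every cryopreserved sample and 2, lcp1 and Cd74, above (41.7% and 13.6% of all features). lcp1 alone held 142, 107 and 312 CPM in C2, C3 and C5, against 52.5 and 37.4 CPM in F2 and F3. The median log2 fold change of the list was -1.59, or -0.67 after TMM rescaling. Endothelium and muscle features (14) summed to 1102, 1247 and 441 CPM in cryopreserved sperm, against 1458 and 852 CPM in fresh-frozen sperm, and the 6 Leydig features to 45.6, 47.7 and 11.3 CPM in cryopreserved sperm, against 64.1 and 49.7 CPM in fresh-frozen sperm. Their part in the results was not tested, and in such bulk samples fewer cells of a type and less RNA per cell cannot be told apart.

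The inner membrane translocases held the 2 highest log2 fold changes of the 61 features, both in the channel subunits of the TIM23 complex. TIMM17B (AUIFUG00000008377) had 147, 81.3 and 259.6 CPM in cryopreserved C2, C3 and C5, against 10.2 and 13.6 CPM in fresh-frozen F2 and F3. Every cryopreserved sample was far above both fresh-frozen samples, with C5 the highest of the cryopreserved samples and C3 the lowest, as for the summed sperm markers. The share of all features in that order was not computed, and a link to those markers was not tested. It had a log2 fold change of 3.52 (SE 0.76, FDR = 0.045 from limma). Its FDR was 0.0418 after TMM rescaling, 0.00214 after quantile normalization and 0.000391 with the male as a block. In the block fit, here and below, the variance came from the trend over all features and not from the single feature. It missed the threshold after median centring (0.143), with a constant prior (0.136), with a pseudocount of 0.1 (0.0861) or 0.5 (0.0596), and over features above 5 CPM (0.0566). The call was lost as well without C2 (0.449), while the fold change stayed between 3.11 and 3.94 whichever sample was left out. An exact permutation test of 3 against 2 samples cannot give a two-sided p below 0.1.

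timm23 (AUIFUG00000014699), which forms the channel with TIMM17 proteins, had 84.7, 50.9 and 137 CPM in cryopreserved C2, C3 and C5, against 9.47 and 7.68 CPM in fresh-frozen F2 and F3. The groups did not overlap, and the order C5, C2, C3 was again that of TIMM17B. This gave a log2 fold change of 3.15 (SE 0.81, FDR = 0.0979 from limma), with an FDR of 0.0443 after TMM rescaling, 0.00551 after quantile normalization and 0.00645 with the male as a block. timm17a (AUIFUG00000014845), the other TIMM17 copy, had 23.6, 22 and 18.1 CPM in the cryopreserved samples, against 1.44 and 3.07 CPM in the fresh-frozen samples. It was also above in every cryopreserved sample, but the 3 lay close together and C5 was the lowest of them. Its log2 fold change was 2.81 (SE 0.93, FDR = 0.246 from limma), with an FDR of 0.0439 after TMM rescaling, 0.0114 after quantile normalization and 0.00858 with the block.

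The remaining inner membrane features did not share this pattern. timm23b (AUIFUG00000012658), a second gene named for the same channel protein, had 13, 13.6 and 1.03 CPM in cryopreserved C2, C3 and C5, against 23.7 and 11.6 CPM in fresh-frozen F2 and F3. C2 and C3 lay between the fresh-frozen samples and C5 was far below them, with a log2 fold change of -1.24 (SE 1.12, FDR = 0.448 from limma). timm50, the receptor that takes preproteins to the channel, had 20.2, 52 and 13.6 CPM in cryopreserved sperm, against 50.6 and 61.2 CPM in fresh-frozen sperm. C3 lay between F2 and F3 and the other cryopreserved samples were lower. Its log2 fold change was -1.16 (SE 0.85, FDR = 0.361 from limma), and it was 0.00 after TMM rescaling. timm44, which holds the import motor at the channel, timm21, timm22 (the channel of the carrier pathway) and timmdc1 (in human cells an assembly factor of complex I) overlapped between groups, with log2 fold changes between -0.69 and 0.46. timm44 itself had 12.2, 15.9 and 18 CPM in the cryopreserved samples, against 12.7 and 12.4 CPM in the fresh-frozen samples. The 9 features of this role summed to 328, 267 and 467 CPM in C2, C3 and C5, against 137 and 133 CPM in F2 and F3, and most of the excess was TIMM17B and timm23.

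**Figure D2:**
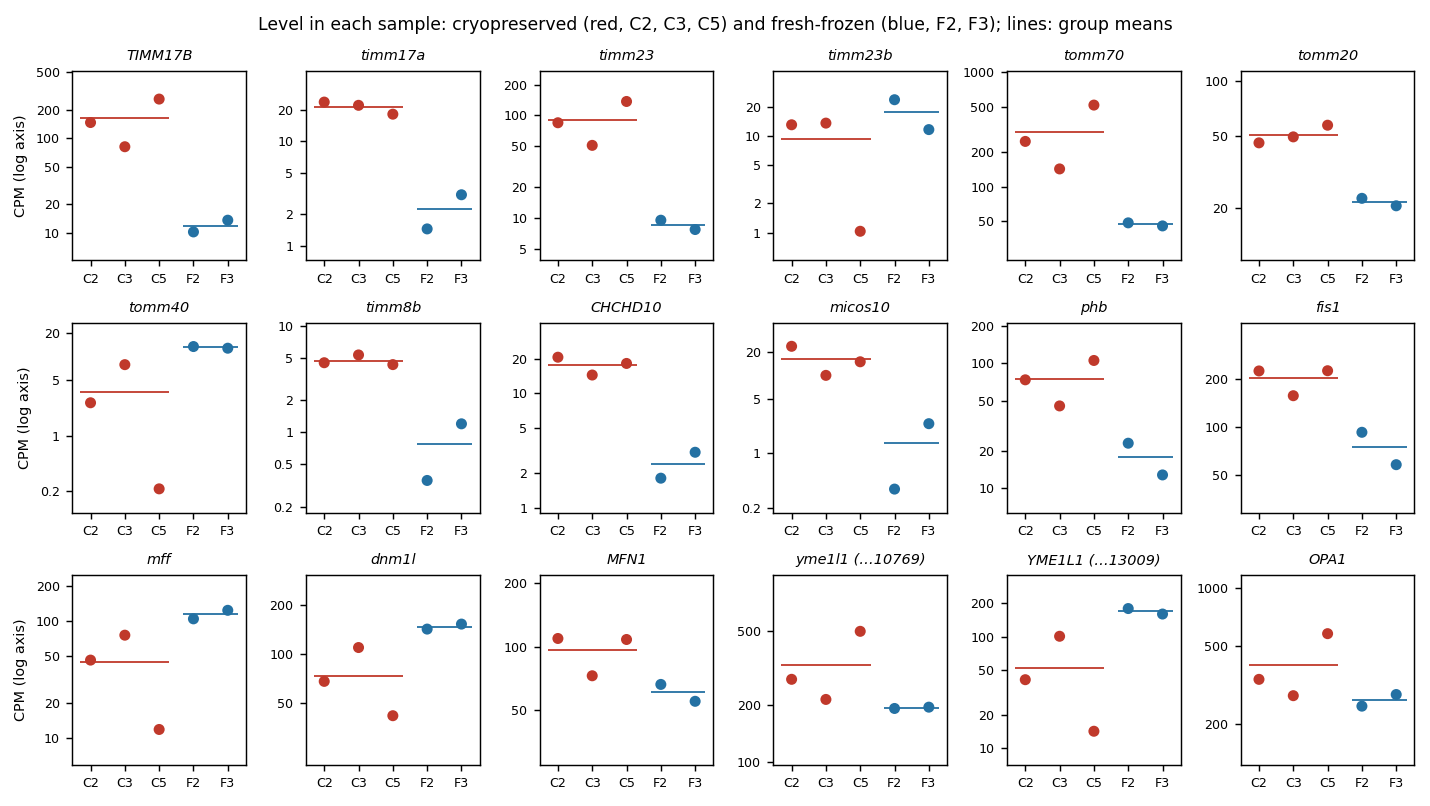
CPM of selected features in each sample on a log axis, cryopreserved samples left of fresh-frozen samples and lines at the group means. TIMM17B, timm23 and tomm70 are above the fresh-frozen samples in every cryopreserved sample, while mff and YME1L1 are below in every one.

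Among the 15 features of outer membrane import, 2 were above in every cryopreserved sample (13.6% of all features), 3 were below (41.7% of all features) and 10 overlapped. Those above were the receptor genes tomm70 and tomm20, while tomm22, also a receptor gene, overlapped with a log2 fold change of -0.36, or 0.78 after TMM rescaling. tomm70 (AUIFUG00000010157), the receptor for carrier proteins and their chaperones, had 249, 143 and 518 CPM in cryopreserved C2, C3 and C5, against 48.5 and 45.6 CPM in fresh-frozen F2 and F3. F2 and F3 were nearly equal, and each cryopreserved sample was higher, with C5 highest. The log2 fold change was 2.47 (SE 0.64, FDR = 0.0997 from limma), so it was not called, and it passed only after quantile normalization among the scalings (2.68, FDR 0.00602). With the male as a block its FDR was 0.008, but the log2 fold change of 1.99 was under the threshold. tomm20, the receptor for presequences, had 45.7, 49.3 and 57.2 CPM in cryopreserved sperm, against 22.6 and 20.5 CPM in fresh-frozen sperm. It was higher in each cryopreserved sample by a smaller step, with a log2 fold change of 1.19 (SE 0.76, FDR = 0.312 from limma).

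The pore and the small subunits did not share this pattern. tomm40, the pore itself, had 2.6, 7.94 and 0.21 CPM in cryopreserved C2, C3 and C5, against 13.5 and 12.8 CPM in fresh-frozen F2 and F3. All 3 cryopreserved samples were lower, C5 most of all, with a log2 fold change of -2.06 (SE 1.04, FDR = 0.267 from limma). tomm40l, a second pore gene, had 19.8, 22 and 29.4 CPM in the cryopreserved samples, against 25.5 and 15.4 CPM in the fresh-frozen samples, which overlapped. TOMM7, a small subunit that in mammals also holds PINK1 at the outer membrane, had 32.3, 51.4 and 22.2 CPM in the cryopreserved samples, against 59.8 and 57.3 CPM in the fresh-frozen samples. It was lower in each cryopreserved sample as deposited, with a log2 fold change of -0.79 (SE 0.77, FDR = 0.479 from limma), but positive after TMM rescaling (0.38) and median centring (0.26). The small subunits tomm5 and tomm6, tomm34, and the sorting proteins samm50, samm50b, mtx1a, mtx2 and mtx3 overlapped between groups, with log2 fold changes between -0.85 and 0.45. MTX1, a metaxin of the SAM complex, had 25, 45.3 and 17.7 CPM in cryopreserved sperm, against 49.6 and 49.3 CPM in fresh-frozen sperm, and its log2 fold change of -0.84 turned to 0.33 after TMM rescaling.

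Most small TIM chaperones, which escort membrane proteins through the intermembrane space, were at a few CPM. timm8b had 4.48, 5.3 and 4.3 CPM in cryopreserved C2, C3 and C5, against 0.353 and 1.2 CPM in fresh-frozen F2 and F3. It was higher in every cryopreserved sample and stood at about 1 read in F2. The technical replicates of C2 lay apart for it, at 2.03 and 6.93 CPM. Its log2 fold change was 1.72 (SE 0.77, FDR = 0.265 from limma). timm10b had 5.85, 37.2 and 2.03 CPM in cryopreserved sperm, against 28.4 and 47.5 CPM in fresh-frozen sperm. C3 lay between F2 and F3 while C2 and C5 were far lower, which gave a log2 fold change of -2.03 (SE 1.14, FDR = 0.279 from limma). timm8a, timm9, timm10 and timm13 overlapped, between -0.56 and 0.58, and single samples were near the floor, such as timm9 in C3 (0.12 CPM) and timm13 in F3 (0.378 CPM).

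The CHCHD proteins, small cysteine-rich proteins of which many are folded by disulfide formation in the intermembrane space, had 3 features above, 3 below and 3 that overlapped (13.6% of all features were above and 41.7% below). CHCHD10, which in human cells is found near cristae junctions, had 20.8, 14.5 and 18.3 CPM in cryopreserved C2, C3 and C5, against 1.81 and 3.06 CPM in fresh-frozen F2 and F3. The 3 cryopreserved samples were alike and all above. Its log2 fold change was 2.47 (SE 0.93, FDR = 0.265 from limma), with an FDR of 0.0288 after quantile normalization and 0.0469 with the male as a block. CHCHD2, its paralog, had 35.2, 34.2 and 49 CPM in cryopreserved sperm, against 16.1 and 3.65 CPM in fresh-frozen sperm. F2 and F3 differed by a larger factor than the cryopreserved samples did, and the groups did not overlap. This gave a log2 fold change of 2.16 (SE 0.92, FDR = 0.265 from limma), with an FDR of 0.0423 after quantile normalization. chchd7 was also above in every cryopreserved sample (1.23).

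CHCHD5 had 2.84, 2.3 and 1.07 CPM in cryopreserved C2, C3 and C5, against 6.18 and 9.37 CPM in fresh-frozen F2 and F3. It was below in every cryopreserved sample, with a log2 fold change of -1.54 (SE 0.85, FDR = 0.277 from limma). chchd4, the oxidoreductase (MIA40 in yeast) that folds such proteins, had 5.13, 10.4 and 3.41 CPM in cryopreserved sperm, against 10.9 and 20.1 CPM in fresh-frozen sperm, also without overlap, but the technical replicates of C2 differed for it by 1.60 on the log2 scale, the most among the 61 features. chchd6, a MICOS subunit, was slightly below in each cryopreserved sample (-0.34) and positive after TMM rescaling (0.81). chchd1, a subunit of the small mitochondrial ribosome, had 19.5, 9.99 and 17 CPM in the cryopreserved samples, against 36.4 and 17.9 CPM in the fresh-frozen samples. They overlapped, and its log2 fold change of -0.74 (SE 0.90, FDR = 0.57 from limma) was positive under TMM rescaling (0.41), median centring (0.31) and quantile normalization (0.081). CHCHD3 and chchd3b, named for another MICOS subunit, overlapped as well.

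Among cristae and scaffold genes, 3 features were above, 3 below and 4 overlapped, where 13.6% of all features were above and 41.7% below. micos10, a small MICOS subunit that bends the membrane at cristae junctions, had 23.6, 10.0 and 14.9 CPM in cryopreserved C2, C3 and C5, against 0.348 and 2.4 CPM in fresh-frozen F2 and F3. It was above in every cryopreserved sample and at about 1 read in F2. The technical replicates of C2 lay apart for it, at 34.4 and 12.8 CPM. The log2 fold change was 2.93 (SE 0.97, FDR = 0.244 from limma), with an FDR of 0.0241 after quantile normalization and 0.00663 with the male as a block. Immt (mitofilin), the core of the same complex, had 98.4, 129 and 74.9 CPM in cryopreserved sperm, against 124 and 153 CPM in fresh-frozen sperm. Its samples overlapped, and the log2 fold change of -0.48 (SE 0.59, FDR = 0.571 from limma) became positive after TMM rescaling (0.71) and median centring (0.57).

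The prohibitins PHB and PHB2 assemble together as a ring in the inner membrane. phb had 73.8, 45.6 and 105 CPM in cryopreserved C2, C3 and C5, against 23 and 12.8 CPM in fresh-frozen F2 and F3. It was above in every cryopreserved sample, in the order C5, C2, C3. It had a log2 fold change of 1.98 (SE 0.79, FDR = 0.265 from limma), and 2.58 with an FDR of 0.0382 after quantile normalization. Of the 3 features named PHB2, AUIFUG00000012007 had 107, 100.1 and 61.6 CPM in the cryopreserved samples, against 52.5 and 41.8 CPM in the fresh-frozen samples. It was above in each, with C5 the lowest of the 3 and a log2 fold change of 0.88 (SE 0.67, FDR = 0.378 from limma). AUIFUG00000030446 had 1.61, 3.54 and 0.0583 CPM in cryopreserved sperm, against 7.29 and 6.76 CPM in fresh-frozen sperm. This one was below in each, with a log2 fold change of -1.79 (SE 0.88, FDR = 0.265 from limma). AUIFUG00000008784 had 1.61, 2.9 and 0.742 CPM in cryopreserved sperm, against 1.08 and 2.6 CPM in fresh-frozen sperm, which overlapped. Its log2 fold change of -0.07 (SE 0.72, FDR = 0.949 from limma) was positive under TMM rescaling, median centring and quantile normalization.

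The LETM genes, named for a cation exchanger of the inner membrane, differed from each other. letm1 had 22.7, 15.3 and 43.5 CPM in cryopreserved C2, C3 and C5, against 5.08 and 17.1 CPM in fresh-frozen F2 and F3, and C3 was below F3. LETM2, its paralog, had 43.8, 47.8 and 41.6 CPM in cryopreserved sperm, against 83.4 and 116 CPM in fresh-frozen sperm. It was below in every cryopreserved sample, with a log2 fold change of -1.13 (SE 0.68, FDR = 0.293 from limma), which was 0.05 after TMM rescaling. opa3 was below in each cryopreserved sample (-0.87, and 0.27 after TMM rescaling), and letmd1 overlapped.

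As deposited, the fission genes differed in direction, while the log2 fold changes of both fusion genes were positive. fis1, a tail-anchored protein of the outer membrane, had 226, 158 and 227 CPM in cryopreserved C2, C3 and C5, against 92.9 and 58.2 CPM in fresh-frozen F2 and F3. All cryopreserved samples were above, with C2 and C5 nearly equal. This gave a log2 fold change of 1.44 (SE 0.56, FDR = 0.265 from limma), and it was not called in any of the 3 scalings or with the block. mff, the main receptor for DRP1 in mammals, had 46.3, 75.6 and 11.9 CPM in cryopreserved sperm, against 104 and 123.2 CPM in fresh-frozen sperm. It was below in every cryopreserved sample, C5 lowest, with a log2 fold change of -1.67 (SE 0.85, FDR = 0.268 from limma). dnm1l, which encodes the DRP1 GTPase that constricts the membrane, had 68.1, 109.8 and 41.9 CPM in the cryopreserved samples, against 142 and 153 CPM in the fresh-frozen samples. The groups did not overlap and C5 was lowest, but the log2 fold change of -1.11 (SE 0.65, FDR = 0.289 from limma) was 0.078 after TMM rescaling.

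Of the fusion genes, MFN1, the outer membrane mitofusin, had 109.5, 72.9 and 108 CPM in cryopreserved C2, C3 and C5, against 66.3 and 55.1 CPM in fresh-frozen F2 and F3. Each cryopreserved sample was above, C3 by little, with a log2 fold change of 0.65 (SE 0.64, FDR = 0.486 from limma). OPA1, the inner membrane GTPase that also shapes cristae, had 338, 278 and 579 CPM in cryopreserved sperm, against 246 and 282 CPM in fresh-frozen sperm. C3 lay between F2 and F3 and C5 was far above both. Its log2 fold change of 0.52 (SE 0.45, FDR = 0.427 from limma) turned to -0.19 after quantile normalization.

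The proteases held the lowest log2 fold change of the 61 features. YME1L1 (AUIFUG00000013009), named for the i-AAA protease that in mammals cleaves OPA1, had 41.2, 101 and 14.2 CPM in cryopreserved C2, C3 and C5, against 179.6 and 160.3 CPM in fresh-frozen F2 and F3. All cryopreserved samples were below, with C5 lowest and C3 closest. The log2 fold change was -2.08 (SE 0.83, FDR = 0.265 from limma). A second feature of that name, yme1l1 (AUIFUG00000010769), had 276, 215 and 498 CPM in cryopreserved sperm, against 193 and 196 CPM in fresh-frozen sperm. It was above in every cryopreserved sample, with C5 highest and C3 closest, and its log2 fold change was 0.67 (SE 0.49, FDR = 0.361 from limma). afg3l2, of the m-AAA protease, overlapped (-0.70), as did lonp1, the matrix Lon protease (0.33), and clpxb. The matrix protease clpp was above in each cryopreserved sample (0.44) and its unfoldase clpx below in each (-0.55, and 0.63 after TMM rescaling).

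Ratios of features within a sample are not changed by a factor that applies to the whole library, as in TMM rescaling, but they are changed by quantile normalization, and they are given here as deposited. They are descriptions with no test, since 9 pairs of related genes and 4 further pairs were picked with the values known, and CPM lets only changes of a ratio be read. The ratio of timm23 to timm23b was 6.49, 3.75 and 133 in C2, C3 and C5, against 0.4 and 0.661 in F2 and F3. That of yme1l1 to YME1L1 was 6.69, 2.13 and 35.1 in the cryopreserved samples, against 1.07 and 1.22 in the fresh-frozen samples. That of tomm40l to tomm40 was 7.62, 2.77 and 139.7 in cryopreserved sperm, against 1.89 and 1.2 in fresh-frozen sperm. In these 3 pairs the balance between the members differed between the groups without overlap, most in C5 and least in C3. The ratios of C5 are uncertain where the divisor was low, as for tomm40 (0.21 CPM) and timm23b (1.03 CPM). timm8b over timm8a also did not overlap (1.16, 3.16 and 0.539 in cryopreserved sperm, against 0.088 and 0.344 in fresh-frozen sperm), at low levels.

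The other 5 pairs of related genes overlapped. TIMM17B over timm17a was 6.2, 3.69 and 14.3 in C2, C3 and C5, against 7.05 and 4.42 in F2 and F3, so the ratio of the copies overlapped while each copy was higher in cryopreserved sperm. clpxb over clpx lay between 0.846 and 1.08 in all samples. Of the further pairs, fis1 over mff was 4.87, 2.09 and 19.1 in the cryopreserved samples, against 0.892 and 0.472 in the fresh-frozen samples. tomm70 over tomm22, 2 receptors of the same complex, was 12.4, 5.13 and 42.9 in cryopreserved sperm, against 1.87 and 1.93 in fresh-frozen sperm. Neither pair overlapped between groups, nor did fis1 over dnm1l or tomm70 over tomm20. For fis1 over mff or dnm1l, and for yme1l1 over YME1L1, this follows from the single features, which lay on opposite sides in every cryopreserved sample. The share of other feature pairs without overlap was not computed. How reads of near copies were divided in counting is not stated for these genes, so values of features that share a name or a paralog are less certain. RefSeq lists paired copies of yme1l1, phb2, timm23, clpx, chchd3 and mtx1 in this species.

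**Figure D3:**
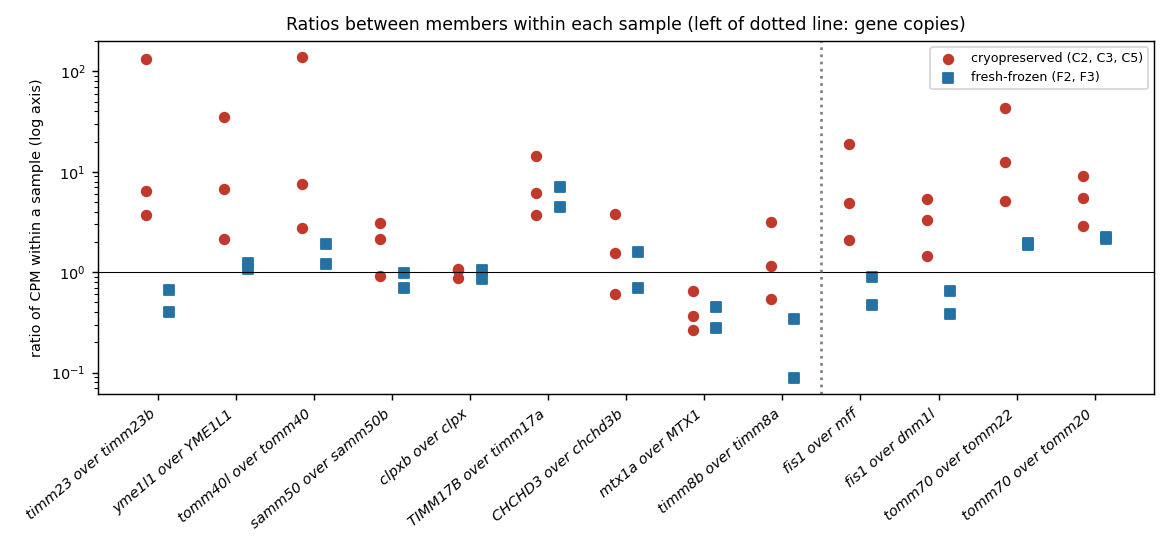
Ratio of CPM within each sample for pairs of features on a log axis, cryopreserved samples left of fresh-frozen samples. timm23 over timm23b reaches 133 in C5 and is below 1 in both fresh-frozen samples, while clpxb over clpx stays near 1 throughout.

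Further genes of the same functions, outside the name rule, lay on both sides as well. Of 25 features for import motors, chaperones and presequence processing, 1 was a DEG in limma (1.54% of all features), 8 were above in every cryopreserved sample and 7 below (13.6% and 41.7% of all features), with a median log2 fold change of -0.18, or 0.97 after TMM rescaling. The DEG was romo1, a small inner membrane protein whose yeast relative sits in the TIM23 complex, with 333, 146 and 388 CPM in cryopreserved C2, C3 and C5, against 14.9 and 22.7 CPM in fresh-frozen F2 and F3. Its groups were widely apart, with a log2 fold change of 3.78 (SE 0.67, FDR = 0.0179 from limma). gfer, the sulfhydryl oxidase that re-oxidises CHCHD4, had 49.2, 42.6 and 115 CPM in cryopreserved sperm, against 2.91 and 4.45 CPM in fresh-frozen sperm, and a log2 fold change of 3.78 (SE 0.90, FDR = 0.0652 from limma). The lowest were mipep, an intermediate peptidase, at -2.36 and dnajc11 at -2.21. Both subunits of the presequence peptidase, chosen after their values were seen, lay on opposite sides as deposited. PMPCB had 183, 76 and 201 CPM in the cryopreserved samples, against 16 and 13.1 CPM in the fresh-frozen samples, and a log2 fold change of 3.20 (SE 0.74, FDR = 0.0598 from limma). pmpca had 22.7, 31.7 and 11.1 CPM in the cryopreserved samples, against 51 and 40.2 CPM in the fresh-frozen samples. The beta subunit was above and the alpha subunit below in every cryopreserved sample, with a log2 fold change of -1.14 (SE 0.85, FDR = 0.369 from limma) for pmpca, which was 0.02 after TMM rescaling. With the male as a block, the FDR of PMPCB was 0.000839 and that of gfer 0.00118.

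Of 38 further features for cristae, cardiolipin and dynamics, 0 were called by limma (1.54% of all features), 6 had an unadjusted p under 0.05 (6.89% of all features with a positive and 11.3% with a negative fold change), 11 were above and 14 below (13.6% and 41.7% of all features), with a median of -0.17, or 0.95 after TMM rescaling. The highest were mul1, a ubiquitin ligase of the outer membrane, with 90.7, 61.6 and 206 CPM in cryopreserved C2, C3 and C5, against 10.6 and 2.72 CPM in fresh-frozen F2 and F3, and prelid1b, a carrier of phosphatidic acid, with 80.2, 38.1 and 136 CPM in cryopreserved sperm, against 3.64 and 4.2 CPM in fresh-frozen sperm. Neither overlapped between the groups. mul1 had a log2 fold change of 4.01 (SE 0.90, FDR = 0.0517 from limma). That of prelid1b was 3.95 (SE 0.89, FDR = 0.0528 from limma). With the male as a block the FDR was 0.000177 for mul1 and 0.000392 for prelid1b. gdap1 (-2.91) and apoob (-2.55) were lowest. Of 29 further features for proteases, mitophagy, calcium uptake and mitochondrial DNA, 1 was a DEG in limma (1.54% of all features), 13 were above and 8 below (13.6% and 41.7% of all features), with a median of 0.25, or 1.43 after TMM rescaling. The DEG was 1 of 3 features named VDAC2, a pore of the outer membrane (AUIFUG00000001468), with 247, 116 and 859.9 CPM in cryopreserved C2, C3 and C5, against 7.65 and 5.34 CPM in fresh-frozen F2 and F3. Its log2 fold change was 5.30 (SE 0.86, FDR = 0.0117 from limma). The others of that name were also above in every cryopreserved sample but were not called. Their log2 fold changes were 0.87 (SE 0.69, FDR = 0.394 from limma) and 1.74 (SE 0.85, FDR = 0.265 from limma). The next highest of the list was TFB2M, a mitochondrial transcription factor, at 3.23 (SE 0.93, FDR = 0.154 from limma), with an FDR of 0.0101 with the block. MCUR1, a regulator of calcium uptake, at -2.69 and BNIP3, a mitophagy receptor, at -2.14 were lowest.

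**Figure D4:**
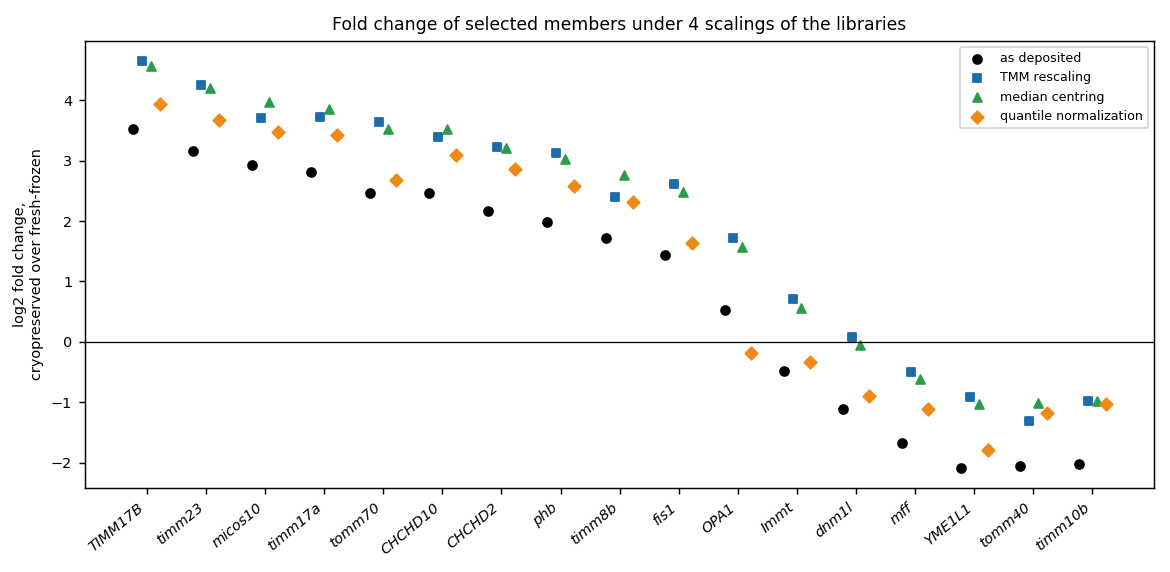
Log2 fold change (cryopreserved minus fresh-frozen, CPM + 1) of selected features as deposited and after TMM rescaling, median centring and quantile normalization. TIMM17B stays between 3.52 and 4.65, while OPA1, Immt and dnm1l lie on different sides of 0 under different scalings.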

How the data were processed

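Reads were trimmed with Trimmomatic 0.39 by the authors, aligned to a blue catfish genome with TopHat2 2.1.1 and assigned to genes with HTSeq. The genome build and the strand setting of the counting are not given in the sources used here. The deposited values carry the name RPKM. Since no column total differs by over 1% from that of CPM, they were treated as CPM. A further deposited column holds the mean log2 CPM of a feature from the authors' edgeR run, and it served only to check this unit.

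From these values, log2(CPM + 1) of the 3 cryopreserved and 2 fresh-frozen samples was compared by limma 3.58.1 under R 4.3.3 (prior with a trend), for all features above a group mean of 1 CPM. The test was run on simulated counts of equal depth with a common dispersion. The libraries compared here differ in composition, so that check does not show how the test behaves on them. TMM factors were computed from the deposited values. The alternatives were other pseudocounts (0.1, 0.5 and 5), filters, scalings, a constant prior, a replicate block, C2 taken from either technical replicate, leaving out each sample, and a fold change threshold of 1. Within a group each sample came from a different male. The p-values of the fit as reported here measure the spread between these few samples, moderated by the prior.

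The digit in a sample's name is the male in the study's methods, so samples of males 2 and 3 are paired. Over features, the male 2 minus male 3 difference correlated at -0.018 between cryopreserved and fresh-frozen sperm. In the block fit C5 has no partner, so its fold changes rest on males 2 and 3, with 1 residual degree of freedom. The prior degrees of freedom of the block fit were infinite. Each feature's variance there was the trend over all features, so the FDR with the block reflects no spread of the single feature.

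Members, roles and lists were chosen with earlier results of these data known. Described in full were DEGs, the highest and lowest fold change and the highest fresh-frozen mean of each role, absolute log2 fold changes above 3, and features sharing a name. Features with an unadjusted p under 0.05, dnm1l, MFN1, tomm20 and LETM2 were added after their values were seen. From the further lists, DEGs and the 2 highest and 2 lowest were named. The symbols of 44 of the 61 features were found in a RefSeq gene table of this species, which was used only for names. Figures were drawn with matplotlib 3.10.9 in Python 3.11.15 (pandas 2.3.3, numpy 2.4.6).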

Additional observations from a re-analysis of the deposited data

How the results depend on the processing

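The count of features called upregulated among the 61 was 1 as reported here. It was 0 with a pseudocount of 0.1 or 0.5, with a group mean above 5 CPM, after median centring and with a constant prior, and 3 with a pseudocount of 5. It was 3 after TMM rescaling (TIMM17B, timm23 and timm17a) and 8 after quantile normalization (these and tomm70, CHCHD10, CHCHD2, micos10 and phb). With the male as a replicate block it was 5 (TIMM17B, timm23, timm17a, CHCHD10 and micos10), a pairing that rests on 2 males, and the block ended no call. With each cryopreserved sample left out it ranged from 0 (without C2, as over all features) to 7 (without C3). Leaving out F2 or F3 leaves 1 fresh-frozen sample, which is assumed to vary like the others, so no count is given there. The count called downregulated was 0 and ranged from 0 to 4 with each cryopreserved sample left out, the 4 being tomm40, timm10b, YME1L1 and mff without C3. The median log2 fold change of 0.05 moved to 1.06 (TMM rescaling), 1.10 (median centring) and 0.72 (quantile normalization), and ranged from -0.12 to 0.14 with each sample left out.

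Of 27 features followed through the alternatives, 6 changed sign in some setting. These were chchd1 (0.41 after TMM rescaling, 0.31 after median centring, 0.081 after quantile normalization), Immt (0.71 and 0.57 after the first 2), TOMM7 (0.38 and 0.26 after the first 2), dnm1l (0.078 after TMM rescaling) and OPA1 (-0.19 after quantile normalization). The sixth was PHB2 (AUIFUG00000008784), with 0.59, 0.98 and 0.70 after the 3 scalings, 0.22 with the replicate block, 0.071 with the first technical replicate of C2 alone, and -0.47 to 0.33 with each sample left out. Over 17 alternatives, these 27 features gave 457 further values, of which 405 kept direction and side of the threshold, 28 passed it only there, 8 (all TIMM17B) missed it only there and 16 changed sign. The 17 alternatives include the fits without F2 or F3, which leave 1 fresh-frozen sample. The causes were not tested.

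Over all features the 421 upregulated calls were 156 with a pseudocount of 0.1, 670 with a pseudocount of 5, 1420 after quantile normalization, 1136 with the block, and 0 after median centring or with a constant prior. With each cryopreserved sample left out they ranged from 0 (without C2) to 1840 (without C3, where 6965 were called downregulated). With 3 and 2 samples per group, and no counts behind single values, the counting error of features at a few CPM, such as most small TIM chaperones, was not estimated.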
